A study of Mus musculus with 16 samples.

Results

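The interaction of L-NAME and angiotensin II (AngII) shows, gene by gene, whether hearts given both treatments differed from what the 2 single treatments add up to. It was computed as the difference of LNAME+AngII from LNAME, minus the difference of AngII from Ctrl, and draws on all 16 of the 16 arrays of the series. Levels are log2 intensities, so adding log2 differences multiplies folds. A value of 0 means that the combination lay at the sum of both treatments, a positive value that it lay above the sum, and a negative value that it lay below it. Of the genes on the array, 9119 had a probe above background and were tested.

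RNA came from left ventricles of male C57BL6 mice, assigned at random at 12 weeks of age to 4 groups with 4 arrays each. LNAME+AngII mice drank L-NAME at 0.3 mg/ml with 1% NaCl for 5 weeks and received AngII at 0.7 mg/kg/day for 4 weeks from a pump under the skin, and the series presents the pair as a model of non-ischemic heart failure. LNAME mice had the same drinking water without AngII, AngII mice had the same AngII dose without L-NAME, and Ctrl mice are labelled as control. The labels do not say whether AngII or Ctrl mice drank salt or carried a pump, so L-NAME and salt cannot be told apart. They number the samples of a group without saying that each is a separate animal, so the p-values refer to the spread among the samples deposited, which may be technical. In ventricular tissue, fewer cells of a type and less RNA per cell cannot be told apart.

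Nitric oxide, made from arginine by nitric oxide synthases, relaxes blood vessels through cyclic GMP, and L-NAME blocks these enzymes. AngII, the effector peptide of the renin-angiotensin system, constricts vessels through the AT1 receptor and promotes growth of heart muscle cells and deposition of matrix by fibroblasts. The 2 systems oppose each other on vessel tone and on growth. An adult ventricle draws most of its ATP from fatty acids, and a shift away from genes of fatty acid use is a known feature of the overloaded heart.

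One array stood apart. The root mean square deviation from the group means over all tested genes was 0.48 log2 units on LNAME+AngII_4 and 0.21 to 0.32 on the other 15 arrays. On that array the mean level of 5 erythroid markers was 12.58, against 10.26 to 11.43 on the others, that of 7 lymphocyte and antigen presentation markers 7.39, against 8.66 to 10.10, and that of 18 fibroblast markers 9.74, against 10.59 to 10.74 on the other LNAME+AngII arrays. Cardiomyocyte markers averaged 13.49 on it and 13.66 to 13.82 on the others. Of these markers, Myh6 and Myl2 had mean levels of 14.4 and 14.9 over all arrays. The interaction is therefore given with and without LNAME+AngII_4.

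With all 16 arrays no gene passed the test of the interaction (limma, 0 of 9119 at an adjusted p under 0.05, 0%), although the smallest adjusted p was 0.0548. At an unadjusted p under 0.05 there were 1493 genes (16.4%), 659 above the sum (7.23%) and 834 below it (9.15%). Without LNAME+AngII_4, 51 genes passed (0.559%), 26 above the sum (0.285%) and 25 below it (0.274%), and 1505 (16.5%) had an unadjusted p under 0.05. With the replicate number as a block, 42 genes passed on 16 arrays (0.461%), 21 in each direction (0.23%), and 21 of these were among the 51. The block without LNAME+AngII_4 gave 49 genes (0.537%), 27 above (0.296%) and 22 below (0.241%), with 32 of the 51 among them. All 51 had the same sign on 16 arrays, with adjusted p of 0.0548 to 0.767 there. Both fits share all arrays but LNAME+AngII_4, so the shared sign is a description and not separate support. The combination by itself had 528 genes that differed from Ctrl (5.79%), 269 higher (2.95%) and 259 lower (2.84%), against 0 (0%) for LNAME and 0 (0%) for AngII. The combination differed from LNAME in 172 genes (1.89%) and from AngII in 67 (0.735%). At an unadjusted p under 0.05, LNAME differed from Ctrl in 1043 genes (11.4%) and AngII in 1314 genes (14.4%).

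The interaction combines 4 group means and is measured less precisely than a single difference. Its median standard error was 0.25 log2 units, against 0.18 for LNAME+AngII minus Ctrl. In simulated data of the same size, the fit called 4 of 50 genes whose interaction was 1.5-fold, 25 of 50 at 2-fold, 45 of 50 at 4-fold and 49 of 50 at 8-fold. The simulated data gave 130 calls in all, against 0 on the 16 arrays. These rates therefore describe the simulated data and are not detection rates for the arrays used here. The count also depended on single arrays. Leaving out AngII_3, LNAME+AngII_3 or Ctrl_1 from the 16 arrays gave 18, 15 and 7 genes, and leaving out LNAME+AngII_2 gave 1. From the 15 arrays without LNAME+AngII_4, leaving out one more gave 0 to 89 genes: 0 without Ctrl_2, Ctrl_4, LNAME_3, LNAME_4, AngII_1, AngII_2 or LNAME+AngII_1, 1 without LNAME+AngII_2, 8 without LNAME_1, 14 without Ctrl_3, 18 without AngII_4 and 89 without LNAME_2. With the mean of 3 atrial genes, of the erythroid markers or of the macrophage markers as a covariate, 0 genes passed on 16 or on 15 arrays. These means differed between the groups themselves, so such a fit also takes out part of the contrast.

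**Figure D1:**
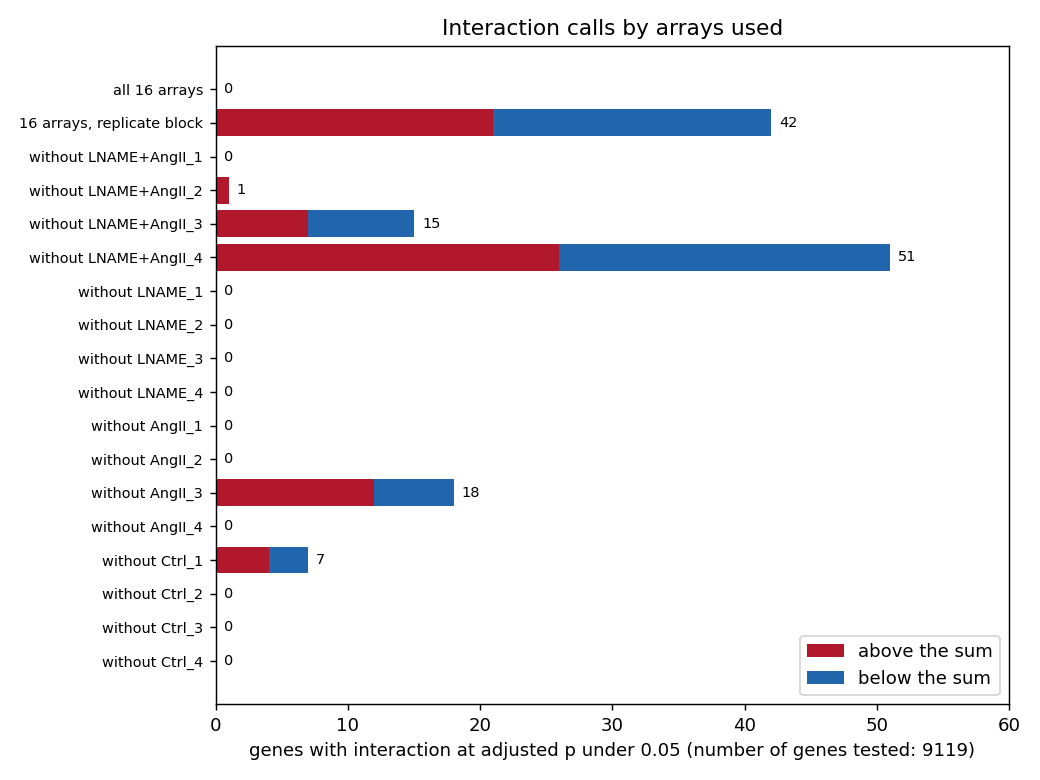
Number of the 9119 tested genes whose interaction passed an adjusted p of 0.05 (horizontal axis), split into genes above and below the sum, for all 16 arrays, for the same arrays with the replicate number as a block, and with each array left out in turn (vertical axis). The count is 0 on 16 arrays, 42 with the block and 51 without LNAME+AngII_4, and 0 without most other arrays.

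Among the 51 genes, the shape of the response was sorted by which differences from Ctrl reached 0.5 log2 units in size. The combination was taken without LNAME+AngII_4 here, and some classes depend on that. With that array, for example, the combination differed from Ctrl by -0.70 for Ptpn18 and by -0.51 for Carm1, both sorted as under 0.5. Above the sum, 13 of 26 moved that far in the combination alone, 7 in a single treatment but not in the combination, 3 in both and 3 in none. Below the sum, 6 of 25 moved that far in the combination alone, 7 in a single treatment but not in the combination, and 12 in none. Both single treatments lay below Ctrl in 15 of the 26 genes above the sum, and both lay above Ctrl in 23 of the 25 genes below it. The Ctrl arrays enter the single differences and the interaction with opposite sign, so these counts describe the genes and are not evidence of their own. Of the 51 genes, 46 were above background on all 16 arrays. Adding untransformed intensities in place of log2 levels turned the sign of 0 of the 51 and of 406 of all 9119. The sign also turned in 0 of the 1493 genes at an unadjusted p under 0.05 on 16 arrays. Both sets were chosen by their p on the log2 scale, so these counts are a description.

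**Figure D2:**
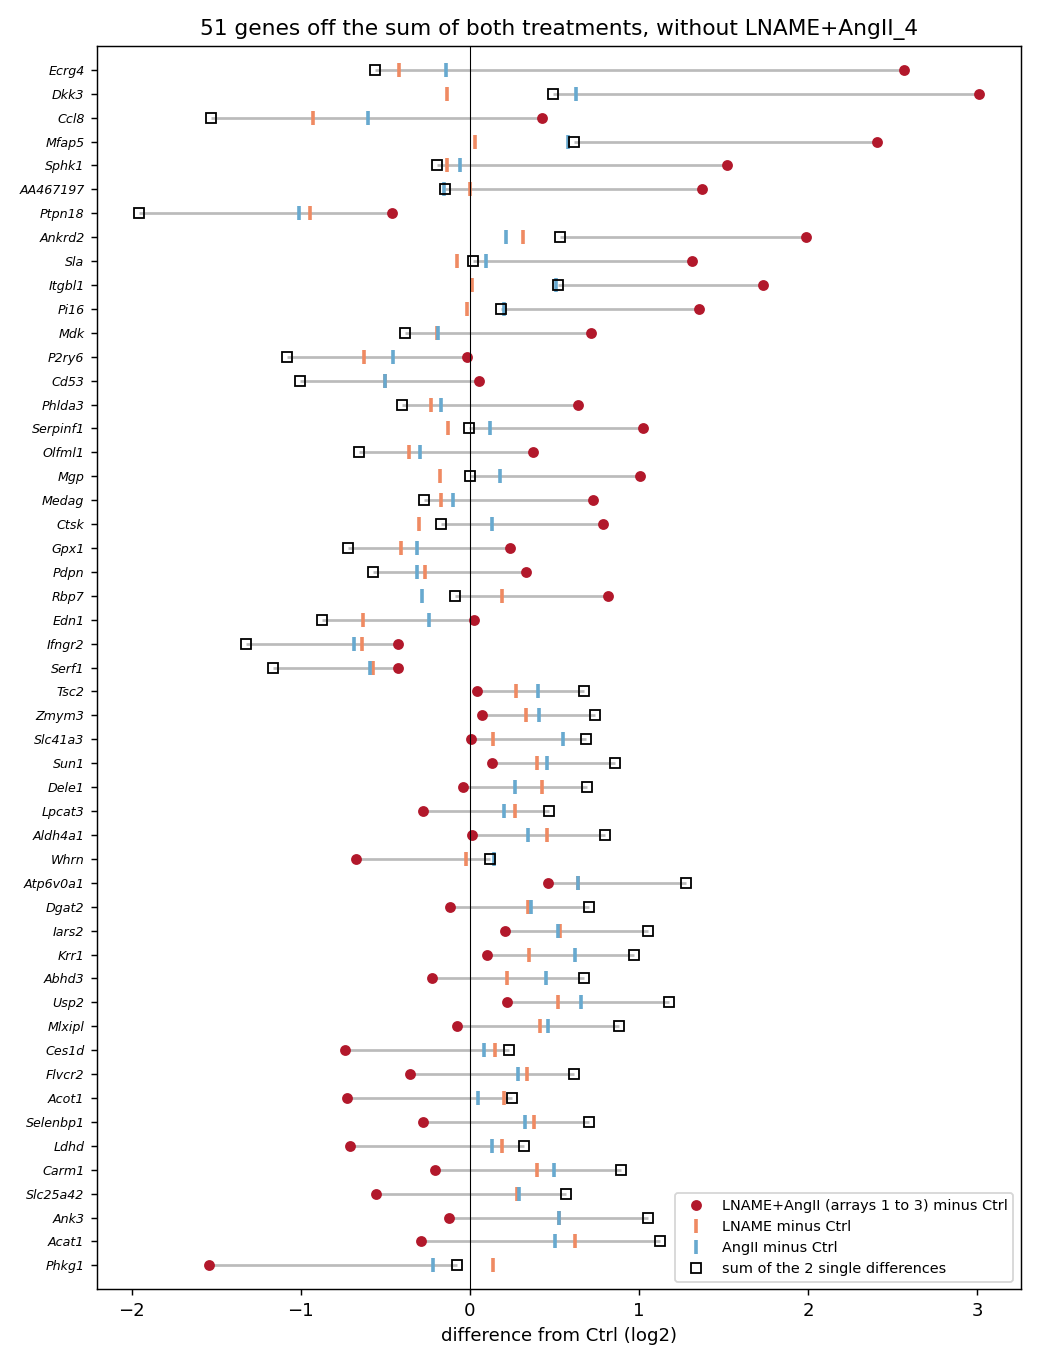
Differences from Ctrl in log2 units (horizontal axis) for the 51 genes that passed without LNAME+AngII_4 (vertical axis, ordered by interaction). Filled red points are the combination without LNAME+AngII_4, orange and blue ticks the single treatments, and open squares the sum of both. The grey line between point and square is the interaction, which is 0.63 log2 units or more in size for every gene shown.

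Sphk1, one of the 13 genes above the sum that differed from Ctrl by 0.5 or more in the combination alone, is a sphingosine kinase that makes the signalling lipid sphingosine 1-phosphate. It read 10.84, 10.56, 10.35 and 11.11 on the LNAME+AngII arrays, 9.18, 9.24, 8.90 and 8.39 on the LNAME arrays, 8.98, 9.14, 9.15 and 8.74 on the AngII arrays and 8.86, 9.55, 9.04 and 8.80 on the Ctrl arrays. Every LNAME+AngII array lay above all 12 others, and the LNAME and AngII arrays overlapped with Ctrl. The combination rose over Ctrl by 1.65 log2 units (adjusted p = 0.000591), whereas LNAME differed from Ctrl by -0.14 and AngII by -0.06. Its interaction was 1.85 ± 0.30 (SE, adjusted p = 0.0548) on 16 arrays, 1.72 ± 0.30 (adjusted p = 0.0359) without LNAME+AngII_4, and had an adjusted p of 0.0466 with the block.

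Ankrd2, an ankyrin repeat protein of the muscle sarcomere that responds to stretch, read 8.45, 7.65, 8.18 and 8.73 on the LNAME+AngII arrays, 6.57, 6.52, 6.47 and 6.13 on the LNAME arrays, 6.29, 6.30, 6.51 and 6.19 on the AngII arrays and 5.90, 6.38, 5.99 and 6.16 on the Ctrl arrays. It was above background (7.12) on all 4 LNAME+AngII arrays and on none of the other 12, and in the combination it was at least 2.18-fold higher than in Ctrl, a bound set by the background level. The fitted interaction was 1.61 on 16 arrays (adjusted p = 0.0548), 1.46 without LNAME+AngII_4 (adjusted p = 0.0359) and had an adjusted p of 0.0466 with the block. Ankrd2 entered the test only through the group where it is high, and the fitted size depends on readings below background.

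Dkk3, a secreted Dickkopf glycoprotein, read 11.19, 10.89, 10.94 and 10.11 on the LNAME+AngII arrays, 8.47, 7.71, 7.47 and 7.79 on the LNAME arrays, 8.77, 8.49, 9.29 and 7.94 on the AngII arrays and 7.79, 7.90, 7.53 and 8.77 on the Ctrl arrays. All LNAME+AngII arrays lay above the others, with LNAME+AngII_4 as the lowest of its group. The interaction of Dkk3 was 2.29 ± 0.46 on 16 arrays (SE, adjusted p = 0.0619; 0.0538 with the block) and 2.51 ± 0.44 without LNAME+AngII_4 (adjusted p = 0.0359), and a second probe gave 2.20 on 16 arrays. AngII by itself differed from Ctrl by 0.63, and Dkk3 is also in the list of atrial and conduction markers given below. Mfap5, a microfibril protein, read 12.54, 12.54, 12.29 and 11.44 on the LNAME+AngII arrays, 10.37, 10.16, 9.79 and 9.99 on the LNAME arrays, 10.62, 10.60, 11.14 and 10.15 on the AngII arrays and 9.88, 10.01, 9.78 and 10.52 on the Ctrl arrays. Here too every combination array exceeded the other 12, and LNAME+AngII_4 was the lowest of its group. The Mfap5 interaction was 1.54 on 16 arrays (adjusted p = 0.0843) and 1.79 without that array (adjusted p = 0.0359), and AngII by itself differed from Ctrl by 0.58. In the list of extracellular matrix and fibrosis, Mfap5 and Ctsk were the 2 of 38 members that passed without LNAME+AngII_4, and 0 passed on 16 arrays. Over all genes, 0.285% passed above the sum without that array and 0% on 16 arrays.

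Mgp, matrix Gla protein, an inhibitor of calcification, read 14.66, 14.81, 14.74 and 14.82 on the LNAME+AngII arrays, 13.55, 13.55, 13.57 and 13.54 on the LNAME arrays, 13.96, 14.06, 14.19 and 13.41 on the AngII arrays and 13.75, 13.75, 13.68 and 13.72 on the Ctrl arrays. The LNAME+AngII arrays were tightly grouped above all others. Its interaction was 1.03 ± 0.19 on 16 arrays (SE, adjusted p = 0.0608), and it passed without LNAME+AngII_4 (1.01, adjusted p = 0.0424) and with the block (adjusted p = 0.0466), but not with both (0.0504). Ctsk, the collagen-degrading protease cathepsin K, averaged 9.94 ± 0.15 in LNAME+AngII, 8.78 ± 0.07 in LNAME, 9.21 ± 0.31 in AngII and 9.08 ± 0.10 in Ctrl (SD, n = 4 each). The combination arrays (9.80 to 10.14) did not overlap with the others (8.69 to 9.65), and the interaction was 1.03 (adjusted p = 0.0608; 0.0441 without LNAME+AngII_4 and 0.0499 with the block, but 0.0522 with both). Phlda3, a target of p53 that restrains Akt, lay at 9.47 to 10.09 on the combination arrays and 8.48 to 9.27 on the others. Its interaction was 1.18 (adjusted p = 0.0619; 0.0441 without LNAME+AngII_4 and 0.0466 with the block), and a second probe gave 0.35.

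Ecrg4, which encodes a secreted peptide precursor also known as augurin, rested on 3 arrays of the combination. It read 9.08, 8.77, 9.74 and 6.07 on the LNAME+AngII arrays, 6.65, 5.998, 5.90 and 6.27 on the LNAME arrays, 6.09, 6.15, 7.31 and 6.40 on the AngII arrays and 6.37, 6.24, 5.96 and 7.95 on the Ctrl arrays. LNAME+AngII_4 lay below background, within the range of LNAME, while the remaining combination arrays were above all others. The gene was above background on 0 LNAME arrays and on 1 AngII and 1 Ctrl array, so it entered the test mainly through the group where it is high. Over all 4 arrays the combination mean, which includes the reading of LNAME+AngII_4 below background, lay 2.44-fold above the background level. The difference of the combination from LNAME did not pass on these arrays (limma, adjusted p = 0.0903). The fitted interaction, which rests on readings below background, was 3.13 ± 0.58 without that array (SE, adjusted p = 0.039) and 2.35 ± 0.88 with it (adjusted p = 0.21), a difference of the estimate by over 1.5 times on the fold scale. The gene listed as AA467197 had 1.52 without LNAME+AngII_4 (adjusted p = 0.0392) and 1.89 with it (adjusted p = 0.0719). That array read 10.14, and the other combination arrays 8.29 to 8.89. AA467197 was above background on 3 LNAME, 2 AngII and 3 Ctrl arrays, so part of its size rests on dim readings.

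**Figure D3:**
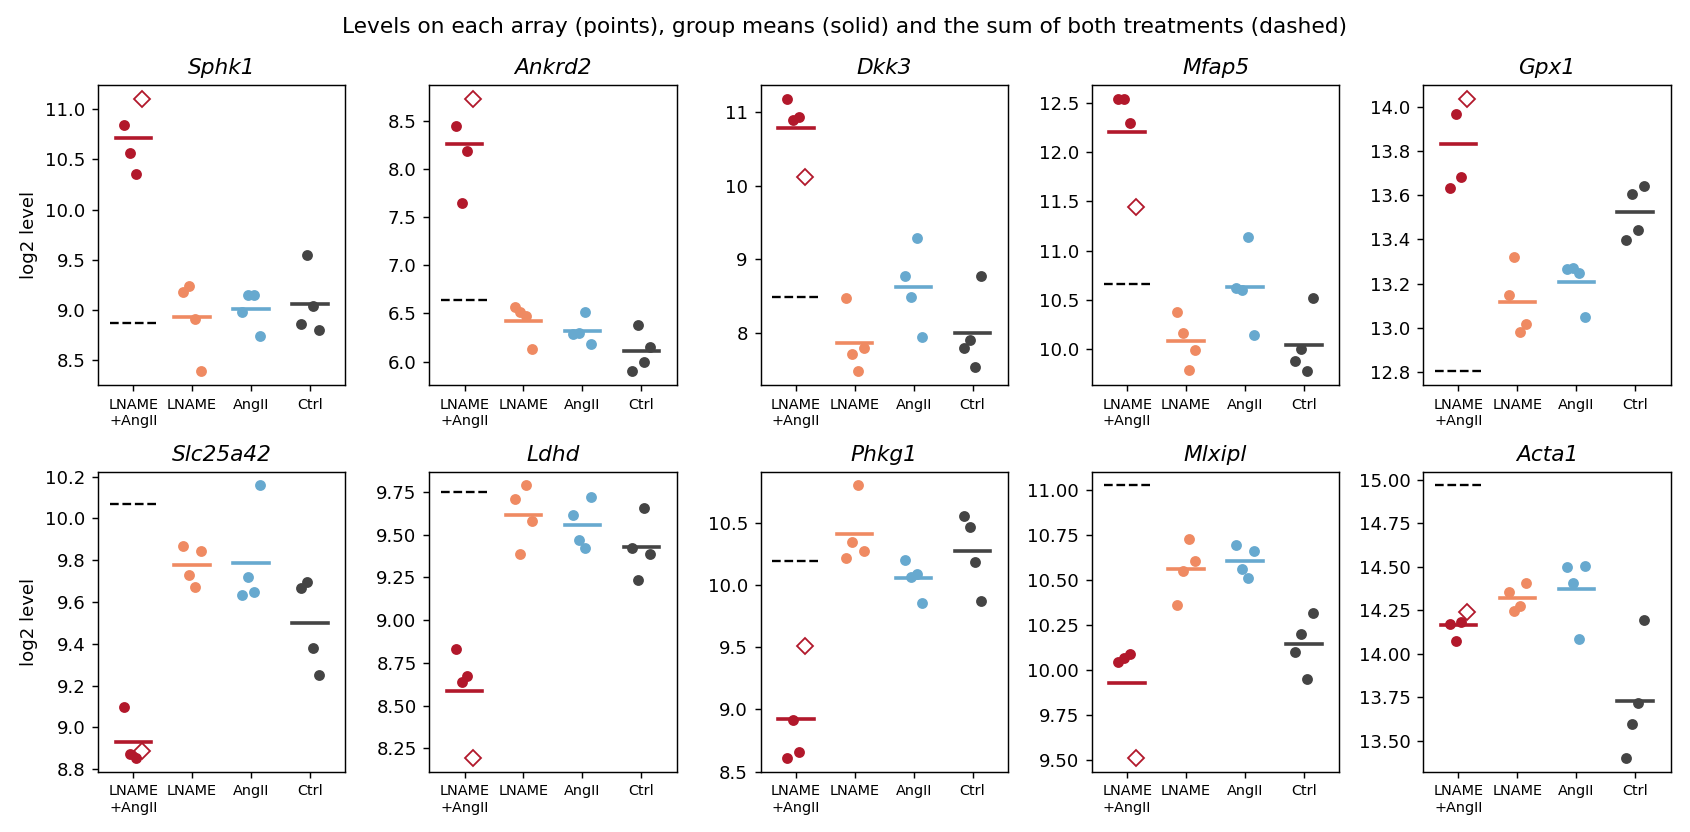
Log2 level (vertical axes, each panel on its own scale) on each array for 10 genes in LNAME+AngII, LNAME, AngII and Ctrl (horizontal axis). Points are arrays, the open diamond is LNAME+AngII_4, solid lines are group means and the dashed line is the level that the sum of both treatments would give. Sphk1, Ankrd2, Dkk3, Mfap5 and Gpx1 lie above the dashed line, and Slc25a42, Ldhd, Phkg1, Mlxipl and Acta1 below it.

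Of the 26 genes above the sum, 7 differed from Ctrl by 0.5 or more in a single treatment but not in the combination without LNAME+AngII_4. Their combination lay on either side of Ctrl. Gpx1, the glutathione peroxidase that removes hydrogen peroxide, stayed under 0.5 in every group and had the smallest unadjusted p of all genes. It read 13.63, 13.96, 13.68 and 14.04 on the LNAME+AngII arrays, 13.15, 13.32, 12.98 and 13.02 on the LNAME arrays, 13.27, 13.27, 13.25 and 13.05 on the AngII arrays and 13.40, 13.61, 13.44 and 13.64 on the Ctrl arrays. Both single-treatment groups lay below every Ctrl array, and the combination lay above every single-treatment array while overlapping with Ctrl. The combination rose over LNAME by 0.71 (adjusted p = 0.00558) and over AngII by 0.62 (adjusted p = 0.0283), while it differed from Ctrl by 0.31 (adjusted p = 0.144). The interaction of Gpx1 was 1.03 ± 0.17 on 16 arrays (SE, adjusted p = 0.0548), 0.96 without LNAME+AngII_4 (adjusted p = 0.0359), and passed with the block (adjusted p = 0.0466).

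Cd53, a tetraspanin of leukocytes, averaged 9.06 ± 0.21 in LNAME+AngII, 8.41 ± 0.24 in LNAME, 8.41 ± 0.17 in AngII and 8.91 ± 0.26 in Ctrl (SD, n = 4 each), with an interaction of 1.16 (adjusted p = 0.0619; 0.0441 without LNAME+AngII_4, and 0.0626 there with the block). Ptpn18, a protein tyrosine phosphatase, averaged 8.35 ± 0.50 in LNAME+AngII, 8.10 ± 0.36 in LNAME, 8.03 ± 0.14 in AngII and 9.05 ± 0.24 in Ctrl, so all 3 treated means lay below Ctrl. The combination of Ptpn18 differed from Ctrl by -0.46 without LNAME+AngII_4 and by -0.70 with it. Its interaction was 1.50 without LNAME+AngII_4 (adjusted p = 0.0359) and 1.26 with it (adjusted p = 0.0969). Ccl8, a chemokine that attracts monocytes, lay at 7.66 to 8.86 in the combination, 6.81 to 7.55 in LNAME, 7.27 to 7.87 in AngII and 7.69 to 9.18 in Ctrl. The combination overlapped with AngII and Ctrl, and the interaction was 1.96 without LNAME+AngII_4 (adjusted p = 0.0497; 0.0581 there with the block) and 1.71 with it (adjusted p = 0.0981). Serf1, which encodes a small protein, was lower than Ctrl in all 3 treated groups, by -0.40 in the combination, -0.57 in LNAME and -0.59 in AngII, so that the combination lay 0.76 above the sum (adjusted p = 0.0619; 0.0497 without LNAME+AngII_4, and 0.0573 there with the block).

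Edn1, the precursor of the vasoconstrictor endothelin 1, is also one of the 7. It read 9.32, 9.42, 9.12 and 9.85 on the LNAME+AngII arrays, 8.92, 8.55, 8.45 and 8.60 on the LNAME arrays, 9.10, 9.07, 9.10 and 8.81 on the AngII arrays and 9.20, 9.25, 9.16 and 9.44 on the Ctrl arrays. LNAME lay below every Ctrl array, and the combination and Ctrl overlapped. The interaction was 1.04 ± 0.21 on 16 arrays (SE, adjusted p = 0.0619) and 0.90 without LNAME+AngII_4 (adjusted p = 0.0424; 0.0502 there with the block). Ece1, the protease that releases active endothelin, had the opposite sign, with 10.28 ± 0.20 in LNAME+AngII, 10.53 ± 0.24 in LNAME, 10.62 ± 0.09 in AngII and 10.07 ± 0.17 in Ctrl (SD, n = 4 each) and an interaction of -0.80 (adjusted p = 0.0847). Of the other genes of nitric oxide, cGMP, angiotensin and endothelin signalling, Ddah1, which breaks down an endogenous inhibitor of nitric oxide synthases, had an interaction of 1.21 (adjusted p = 0.249; 1.63 and 0.0523 without LNAME+AngII_4, and 0.0441 there with the block). Nos3, the endothelial nitric oxide synthase, had -0.18 (adjusted p = 0.681), with -0.47 and -0.67 on its other probes, and the AT1 receptor gene Agtr1a had -0.26 (adjusted p = 0.428). Over the 23 tested members of that list the median interaction was 0.08, with 4 above and 2 below the sum at an unadjusted p under 0.05 (7.23% and 9.15% of all genes).

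The 6 genes below the sum that differed from Ctrl by 0.5 or more in the combination alone were Slc25a42, Ldhd, Phkg1, Acot1, Ces1d and Whrn, the last of which was named after its values were seen. Slc25a42, a mitochondrial carrier that imports coenzyme A, read 9.10, 8.87, 8.85 and 8.89 on the LNAME+AngII arrays, 9.87, 9.73, 9.67 and 9.85 on the LNAME arrays, 9.63, 9.72, 9.65 and 10.16 on the AngII arrays and 9.67, 9.70, 9.38 and 9.25 on the Ctrl arrays. All 4 combination arrays lay below the other 12. The combination fell by 0.57 log2 units against Ctrl (adjusted p = 0.0251), whereas LNAME differed by 0.28 and AngII by 0.29. Its interaction was -1.14 ± 0.19 on 16 arrays (SE, adjusted p = 0.0548), -1.13 without LNAME+AngII_4 (adjusted p = 0.0359), and passed with the block (adjusted p = 0.0466).

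Ldhd, a mitochondrial dehydrogenase of D-lactate, read 8.83, 8.64, 8.67 and 8.19 on the LNAME+AngII arrays, 9.71, 9.39, 9.79 and 9.58 on the LNAME arrays, 9.62, 9.47, 9.42 and 9.72 on the AngII arrays and 9.42, 9.24, 9.66 and 9.39 on the Ctrl arrays. Again the combination arrays were the 4 lowest. The interaction was -1.16 ± 0.20 on 16 arrays (SE, adjusted p = 0.0548) and -1.03 without LNAME+AngII_4 (adjusted p = 0.0359), with an adjusted p of 0.0466 with the block, and 2 further probes gave -0.84 and -0.48. Phkg1, the catalytic subunit of muscle phosphorylase kinase that starts glycogen breakdown, read 8.61, 8.91, 8.65 and 9.51 on the LNAME+AngII arrays, 10.21, 10.34, 10.80 and 10.27 on the LNAME arrays, 10.20, 10.07, 10.09 and 9.85 on the AngII arrays and 10.56, 10.47, 10.18 and 9.87 on the Ctrl arrays. The combination was lower than every other array. Its interaction was -1.47 ± 0.24 without LNAME+AngII_4 (SE, adjusted p = 0.0359) and -1.27 with it (adjusted p = 0.0726).

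Acot1, a cytosolic acyl-CoA thioesterase, averaged 12.49 ± 0.87 in LNAME+AngII, 13.85 ± 0.16 in LNAME, 13.70 ± 0.09 in AngII and 13.65 ± 0.30 in Ctrl (SD, n = 4 each), with LNAME+AngII_4 at 11.19. Its interaction was -0.97 without that array (adjusted p = 0.0441; 0.0504 there with the block) and -1.41 with it (adjusted p = 0.136), and a second probe gave -1.31 on 16 arrays. Ces1d, a carboxylesterase that hydrolyses lipid esters, lay at 11.90 to 13.02 in the combination and 13.57 to 14.00 on the other 12 arrays, with no overlap. The interaction of Ces1d was -1.24 (adjusted p = 0.0711; -0.97 and 0.0359 without LNAME+AngII_4). Dgat2, which makes triglycerides, differed by less than 0.5 from Ctrl in every group. It averaged 13.10 ± 0.19 in LNAME+AngII, 13.53 ± 0.13 in LNAME, 13.55 ± 0.09 in AngII and 13.18 ± 0.10 in Ctrl, so the single treatments lay above Ctrl and the combination near it. Its interaction was -0.79 (adjusted p = 0.0619; 0.0424 without LNAME+AngII_4 and 0.0466 with the block).

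Without LNAME+AngII_4, the other 19 genes below the sum stayed under 0.5 in the combination, 12 of them in every group. Mlxipl, which encodes the glucose-responsive transcription factor ChREBP, read 10.04, 10.07, 10.09 and 9.51 on the LNAME+AngII arrays, 10.36, 10.55, 10.73 and 10.61 on the LNAME arrays, 10.69, 10.56, 10.51 and 10.66 on the AngII arrays and 10.10, 10.20, 9.95 and 10.32 on the Ctrl arrays. Every LNAME and AngII array lay above every Ctrl array, and the combination lay within or below the Ctrl range. The interaction was -1.10 ± 0.19 on 16 arrays (SE, adjusted p = 0.0548), -0.96 without LNAME+AngII_4 (adjusted p = 0.0359), with an adjusted p of 0.0466 with the block. Ank3, the membrane-scaffold protein ankyrin G, averaged 9.24 ± 0.12 in LNAME+AngII, 9.87 ± 0.17 in LNAME, 9.87 ± 0.25 in AngII and 9.34 ± 0.23 in Ctrl (SD, n = 4 each). Its interaction was -1.16 (adjusted p = 0.0548; 0.039 without LNAME+AngII_4 and 0.0466 with the block, but 0.0504 with both), and a second, dimmer probe gave -0.43.

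Selenbp1, a selenium-binding protein, averaged 11.63 ± 0.11 in LNAME+AngII, 12.22 ± 0.20 in LNAME, 12.18 ± 0.03 in AngII and 11.85 ± 0.21 in Ctrl, with an interaction of -0.93 (adjusted p = 0.0608; 0.0359 without LNAME+AngII_4 and 0.0466 with the block). Flvcr2, a transporter of the heme exporter family, had an interaction of -1.10 (adjusted p = 0.0608), with combination arrays at 7.52 to 8.10 and all others at 8.32 to 9.09. Sun1, a protein of the inner nuclear membrane that links the nucleus to the cytoskeleton, had -0.74 (adjusted p = 0.0608) and -0.45 on a second probe. Atp6v0a1, a subunit of the vacuolar proton pump, had -0.90 (adjusted p = 0.0608), but a second, dimmer probe gave 0.27. In the combination Sun1 differed from Ctrl by 0.12 and Atp6v0a1 by 0.38. Without LNAME+AngII_4 Flvcr2, Sun1 and Atp6v0a1 passed, with adjusted p of 0.039, 0.0392 and 0.039, and with the block each had 0.0466. With both, Flvcr2 had 0.0504.

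Acat1, the mitochondrial acetoacetyl-CoA thiolase, depended on LNAME+AngII_4. That array read 10.29, above all 15 others, while the remaining combination arrays read 9.08, 8.44 and 9.12. Its interaction was -1.41 without the array (adjusted p = 0.0429) and -1.06 with it (adjusted p = 0.225). Carm1, an arginine methyltransferase that acts on histones, had -1.10 without LNAME+AngII_4 (adjusted p = 0.0441) and -1.40 with it (adjusted p = 0.085), with that array at 6.28, below background.

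Promoters of 3 of these genes are shown because they stand for both directions: Ankrd2 and Sphk1 above the sum and Ldhd below it. Each is the 300-base RefSeq window that ends shortly after a transcription start (GRCm38.p6), 5′ to 3′ on the gene's strand, and capitals mark motif matches on either strand. Sphk1 has further RefSeq starts, and the first listed is shown. The motifs searched were TGACTCA (AP-1), CATTCC (TEAD), CACGTG (E-box) and AGGTCA (nuclear receptor half-site).
Ankrd2, chr19:42035777-42036076, + strand: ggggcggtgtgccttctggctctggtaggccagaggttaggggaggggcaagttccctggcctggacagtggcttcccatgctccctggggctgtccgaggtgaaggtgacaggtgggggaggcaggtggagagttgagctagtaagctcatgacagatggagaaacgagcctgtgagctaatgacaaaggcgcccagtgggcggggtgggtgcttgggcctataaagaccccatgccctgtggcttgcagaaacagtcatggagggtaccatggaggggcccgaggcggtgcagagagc
Sphk1, chr11:116530850-116531149, + strand: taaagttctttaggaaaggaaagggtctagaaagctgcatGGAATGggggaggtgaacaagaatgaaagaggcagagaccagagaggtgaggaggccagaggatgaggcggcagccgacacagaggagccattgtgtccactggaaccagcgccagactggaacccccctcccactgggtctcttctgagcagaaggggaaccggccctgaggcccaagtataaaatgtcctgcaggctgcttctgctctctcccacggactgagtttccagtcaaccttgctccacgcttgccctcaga
Ldhd, chr8:111630287-111630586, - strand: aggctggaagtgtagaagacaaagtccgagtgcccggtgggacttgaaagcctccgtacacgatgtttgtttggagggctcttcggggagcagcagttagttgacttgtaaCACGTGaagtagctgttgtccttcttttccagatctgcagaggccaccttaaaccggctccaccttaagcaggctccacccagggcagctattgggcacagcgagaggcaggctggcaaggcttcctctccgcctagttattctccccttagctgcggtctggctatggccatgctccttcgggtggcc
The TEAD letters occur once in the Sphk1 window and the E-box once in that of Ldhd, and the Ankrd2 window holds none of the 4. The 4 Sphk1 windows not shown differ from it: 0 hold the TEAD letters, 2 hold TGACTCA, and 2 hold both CACGTG and AGGTCA. Of the called genes, 20 above and 18 below the sum had a promoter entry, of which the first listed was searched. The TEAD letters were in 5 of the 20 and 3 of the 18, against 12.2% of the 7429 promoters of tested genes and 14.6% of all 27025. The E-box was in 2 and 3 (10.1% of tested genes, 7.24% of all), AGGTCA in 2 and 0 (12.3% and 16.04%) and TGACTCA in 1 and 0 (3.66% and 5.17%). No 2 matches overlap in these windows, and a match is a description of the letters only.

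Other genes that rose strongly in the combination had positive interactions that missed the threshold on 16 arrays. Nox4, an oxidase that makes hydrogen peroxide, read 10.23, 9.998, 9.69 and 10.17 on the LNAME+AngII arrays, 7.81, 7.13, 6.76 and 7.09 on the LNAME arrays, 7.74, 7.30, 9.47 and 6.99 on the AngII arrays and 6.96, 7.20, 7.20 and 7.09 on the Ctrl arrays. The combination lay above all other arrays, and AngII_3 (9.47) came close to LNAME+AngII_3 (9.69). The interaction was 2.06 ± 0.55 (SE, adjusted p = 0.104) on 16 arrays. It did not pass without LNAME+AngII_4 (adjusted p = 0.121), with the block (0.0889) or with both (0.119). Of the arrays left out in turn, only AngII_3, the highest AngII array, let Nox4 pass (adjusted p = 0.00675). Nox4 was above background on 2 LNAME, 3 AngII and 2 Ctrl arrays, so part of its size rests on dim readings. Timp1, an inhibitor of matrix metalloproteinases, averaged 10.53 ± 0.50 in LNAME+AngII, 8.28 ± 0.48 in LNAME, 9.02 ± 0.49 in AngII and 8.69 ± 0.22 in Ctrl (SD, n = 4 each). Its interaction was 1.92 (adjusted p = 0.065; 0.0645 without LNAME+AngII_4), and a second probe gave 1.96. Lox, which crosslinks collagen, had 1.10 (adjusted p = 0.133), and Angptl7, a secreted angiopoietin-like protein, 1.64 (adjusted p = 0.31), with AngII_3 at 11.28 and the other AngII arrays at 8.91 to 9.04.

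Col1a1, the main fibrillar collagen, read 9.71, 10.50, 9.70 and 6.97 on the LNAME+AngII arrays, 8.68, 7.96, 8.03 and 8.31 on the LNAME arrays, 8.997, 8.98, 8.66 and 8.34 on the AngII arrays and 7.45, 8.03, 7.93 and 8.28 on the Ctrl arrays. LNAME+AngII_4 was the lowest of all 16 arrays, and the interaction was 0.15 ± 0.74 with it (SE, adjusted p = 0.951) and 0.90 ± 0.34 without it (adjusted p = 0.212). Over 38 tested genes of extracellular matrix and fibrosis the median interaction was 0.32 on 16 arrays and 0.53 without LNAME+AngII_4, against -0.01 and -0.02 over all genes. At an unadjusted p under 0.05, 6 were above and 1 below the sum on 16 arrays (7.23% and 9.15% of all genes), and 19 above and 1 below without that array (7.86% and 8.64% of all genes). Over 18 fibroblast markers the medians were 0.30 and 0.60, and 2 above and 1 below became 9 above and 1 below. The mean level of the fibroblast markers was 9.74 to 10.74 in LNAME+AngII, 9.83 to 10.02 in LNAME, 9.80 to 10.29 in AngII and 9.78 to 9.99 in Ctrl. Their part in the matrix result was not tested.

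In the list of hypertrophy and the fetal programme, 11 of 19 tested members had a positive and 8 a negative interaction. Over all 9119 genes, 4407 were positive and 4712 negative. Ankrd2, above the sum, was the 1 member that passed without LNAME+AngII_4, where 0.285% of all genes passed above the sum. Since Ankrd2 entered the test only through the group where it is high, its call is no result about the list. Acta1, skeletal alpha-actin of the fetal programme, read 14.17, 14.07, 14.18 and 14.24 on the LNAME+AngII arrays, 14.36, 14.24, 14.28 and 14.41 on the LNAME arrays, 14.50, 14.40, 14.08 and 14.50 on the AngII arrays and 13.40, 13.60, 13.72 and 14.19 on the Ctrl arrays. All LNAME arrays and 3 AngII arrays lay above every Ctrl array, and every combination array lay below the LNAME mean. The interaction was -0.80 ± 0.21 (SE, adjusted p = 0.0982, and 0.0628 with the block). The level of Acta1 at the sum was 14.97, near the highest value on any array (15.02). Whether the scale limits its interaction was not tested. Nppa, the precursor of atrial natriuretic peptide, differed from Ctrl by 0.57 in the combination, 0.42 in LNAME and 0.59 in AngII, and its interaction was -0.44 (adjusted p = 0.277). For Nppb, which encodes brain natriuretic peptide, the differences were 0.41, 0.39 and 0.37 in the same groups, with an interaction of -0.36 (adjusted p = 0.311). Both natriuretic genes read 13.66 or more on every array, near the highest value on any array (15.02). Their levels at the sum, 15.10 for Nppa and 15.08 for Nppb, lay above that value. A combination at the sum would thus exceed every reading here, and whether the scale limits the 2 interactions was not tested. Myh7, the slow myosin heavy chain, had -0.93 (adjusted p = 0.522), and Xirp1, an actin-binding protein of intercalated discs, -0.98 (adjusted p = 0.126).

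Bag3, a co-chaperone that maintains the sarcomere, averaged 14.44 ± 0.17 in LNAME+AngII, 14.45 ± 0.12 in LNAME, 14.59 ± 0.08 in AngII and 13.94 ± 0.12 in Ctrl (SD, n = 4 each). Every treated array lay above every Ctrl array, with an interaction of -0.67 (adjusted p = 0.0744). The level of Bag3 at the sum was 15.10, above the highest value on any array (15.02). Whether the scale limits its interaction was not tested. Hspb7, a small heat shock protein of muscle, had an interaction of -0.47 (adjusted p = 0.189). Over 19 tested genes of hypertrophy and the fetal programme the median was 0.05, with 3 above and 3 below the sum at an unadjusted p under 0.05 (7.23% and 9.15% of all genes), and over 23 heat shock chaperones it was -0.17, with 1 above and 3 below.

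Ano10 and Tbc1d10c, which had among the largest falls in the combination, had negative interactions that did not pass the test. Ano10, of the anoctamin family of channels and scramblases, differed from Ctrl by -2.35 in the combination, -0.83 in LNAME and -1.06 in AngII, an interaction of -0.47 ± 0.33 (SE, adjusted p = 0.516). Tbc1d10c, a Rab GTPase-activating protein, differed by -2.04, -0.75 and -0.83, with -0.46 ± 0.28 (adjusted p = 0.43). On the untransformed scale the sign of both turned positive. Among the 269 genes higher in the combination than in Ctrl, the median difference was 0.72, and the median sum of the single differences 0.56. Among the 259 lower genes these were -0.63 and -0.62. The genes were chosen by a difference that shares arrays with the interaction, so these medians are a description.

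Metabolic lists had negative medians. Of 39 genes of fatty acid uptake and oxidation, 15 were below and 0 above the sum at an unadjusted p under 0.05, against 9.15% below among all genes, and the median interaction was -0.31 (-0.30 without LNAME+AngII_4). Acot1, Ces1d and Dgat2 passed without that array, where 0.274% of all genes passed below the sum. Slc27a1, a fatty acid transporter, averaged 10.33 ± 0.39 in LNAME+AngII, 10.91 ± 0.10 in LNAME, 10.91 ± 0.24 in AngII and 10.50 ± 0.34 in Ctrl (SD, n = 4 each), with -0.99 (adjusted p = 0.117). Of 24 genes of glycolysis and glycogen, 7 were below and 0 above, with a median of -0.30. Besides Phkg1 they included Pfkm, the muscle phosphofructokinase (-0.50, adjusted p = 0.143), and Pygb, a glycogen phosphorylase (-0.68, adjusted p = 0.146). Of 21 TCA cycle and pyruvate dehydrogenase genes, 7 were below and 0 above, with a median of -0.24.

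Within that cycle, Ogdh, a subunit of the 2-oxoglutarate dehydrogenase complex, averaged 12.58 ± 0.42 in LNAME+AngII, 13.17 ± 0.15 in LNAME, 12.96 ± 0.08 in AngII and 12.64 ± 0.17 in Ctrl (SD, n = 4 each), with an interaction of -0.90 (adjusted p = 0.103; 0.0607 without LNAME+AngII_4). Suclg2, a subunit of succinyl-CoA ligase, had -0.64 (adjusted p = 0.114) and Pdk2, a kinase that inhibits pyruvate dehydrogenase, -0.80 (adjusted p = 0.123). Differences from Ctrl were also summarised by list medians. For fatty acid genes they were -0.24 in LNAME+AngII, 0.07 in LNAME and 0.03 in AngII. For glycolysis they were 0.07, 0.20 and 0.24, and for the TCA cycle -0.11, 0.03 and 0.00 in the same order.

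Lists of respiratory chain subunits had medians near 0. Of 33 complex I genes 1 was below and 0 above the sum at an unadjusted p under 0.05 (9.15% and 7.23% of all genes), with a median of 0.08, and the 1 was Ndufa9 (-0.32, adjusted p = 0.253). Of 41 genes of complexes II to V, 2 were above and 1 below, with a median of 0.06. The 2 were Atp5k (0.81) and Atp5e (0.43), both of ATP synthase, and the 1 was Cox15 (-0.57), which makes heme A for cytochrome oxidase. Both ribosomal lists had positive medians. Of 45 cytosolic ribosomal genes, 17 were above and 0 below, with a median of 0.29 on 16 arrays and 0.30 without LNAME+AngII_4. Rpl12 averaged 13.67 ± 0.24 in LNAME+AngII, 13.40 ± 0.10 in LNAME, 13.34 ± 0.14 in AngII and 13.83 ± 0.12 in Ctrl (SD, n = 4 each), with 0.77 (adjusted p = 0.0743), and Rpl3 and Rps16 each had 0.57. Of 68 mitochondrial ribosomal genes 11 were above and 0 below, with a median of 0.14, and Mrpl54 (0.54) and Mrpl52 (0.59) led them.

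Excitation genes had a negative median. Of 25 genes of calcium handling and channels, 6 were below and 1 above the sum at an unadjusted p under 0.05 (9.15% and 7.23% of all genes), with a median of -0.21. Kcnd2, a channel subunit of the transient outward potassium current, averaged 7.21 ± 0.23 in LNAME+AngII, 8.12 ± 0.24 in LNAME, 8.01 ± 0.23 in AngII and 7.88 ± 0.13 in Ctrl (SD, n = 4 each), with -1.04 (adjusted p = 0.065). Camk2a, a calmodulin-dependent kinase, had -0.83 (adjusted p = 0.0703), and Hrc, a calcium-binding protein of the sarcoplasmic reticulum, -0.57 (adjusted p = 0.071). On all 4 combination arrays Kcnd2 and Hrc lay below the other 12, and Kcnd2 was above background on 2 of these 4. Ryr2, the calcium release channel, had -1.42 (adjusted p = 0.105; 0.0512 with the block).

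The list of antioxidant and NADPH oxidase genes held values of both signs. Hmox1, heme oxygenase 1, which degrades heme, read 9.36, 8.89, 9.35 and 9.09 on the LNAME+AngII arrays, 9.90, 9.21, 11.05 and 10.57 on the LNAME arrays, 10.35, 10.63, 10.76 and 10.75 on the AngII arrays and 10.45, 8.90, 9.54 and 8.54 on the Ctrl arrays. AngII lay above every combination array, and Ctrl spread over most of the range of the other groups. Its interaction was -2.27 ± 0.54 (SE, adjusted p = 0.0843; 0.0582 with the block). With Gpx1 and Nox4 above the sum, 5 of 28 members were above and 3 below at an unadjusted p under 0.05 (7.23% and 9.15% of all genes), and the median was -0.04. Nupr1, a stress-induced nuclear protein, averaged 10.51 ± 0.28 in LNAME+AngII, 8.87 ± 0.10 in LNAME, 8.98 ± 0.75 in AngII and 9.04 ± 0.11 in Ctrl (SD, n = 4 each), with 1.69 (adjusted p = 0.0711; 0.0512 with the block). Its combination arrays lay above all others, while the list of ER stress and the integrated stress response had a median of 0.04 over 24 genes, with 4 above and 1 below.

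Lists of other stress and regulatory pathways had medians of either sign. They were 0.32 over 18 genes of acute phase and inflammation (4 above, 0 below at an unadjusted p under 0.05, where all genes had 7.23% and 9.15%), 0.22 over 18 of the cell cycle (5 and 1), 0.08 over 15 glucocorticoid-responsive genes (3 and 1), -0.11 over 17 immediate early genes (1 and 1) and -0.01 over 27 interferon genes (1 and 1). They were -0.02 over 28 proteasome genes (1 and 3) and 0.00 over 15 clock genes (0 and 2), where the median without LNAME+AngII_4 was -0.25. Serpina3n, an acute phase protease inhibitor, had 1.06 (adjusted p = 0.194), Egr2, an immediate early transcription factor, 0.86 (adjusted p = 0.305), and the clock gene Cry2 -1.03 (adjusted p = 0.168).

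Markers of other cell types were set beside these results. Of 16 macrophage markers, 6 were above and 0 below the sum at an unadjusted p under 0.05 (7.23% and 9.15% of all genes). A positive sign was found in 14 of them (4407 of all 9119 genes), and the median was 0.56. Without LNAME+AngII_4 the median was 0.74 and 10 were above, against 7.86% of all genes. Lgals3, galectin 3, read 11.63, 11.40, 10.92 and 11.94 on the LNAME+AngII arrays, 10.12, 10.17, 9.35 and 9.79 on the LNAME arrays, 10.33, 10.09, 10.78 and 9.81 on the AngII arrays and 10.11, 10.32, 10.51 and 10.44 on the Ctrl arrays. The combination lay above all other arrays, with an interaction of 1.70 ± 0.34 (SE, adjusted p = 0.0619; 0.0523 without LNAME+AngII_4). Ctss, cathepsin S, averaged 8.79 ± 0.44 in LNAME+AngII, 8.20 ± 0.29 in LNAME, 7.98 ± 0.19 in AngII and 8.65 ± 0.19 in Ctrl (SD, n = 4 each), with 1.26 (adjusted p = 0.0739; 0.0466 with the block, and 0.0509 without LNAME+AngII_4 or 0.0444 with both). The mean level of the macrophage markers was 9.87 to 10.34 in LNAME+AngII, 9.56 to 9.84 in LNAME, 9.52 to 10.11 in AngII and 9.90 to 10.11 in Ctrl, so LNAME lay below Ctrl on all arrays and the combination overlapped with Ctrl.

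Smooth muscle and pericyte markers lay below the sum in all 12 tested members, as did 4712 of all 9119 genes. At an unadjusted p under 0.05, 4 of the 12 were below (9.15% of all genes). The median of the 12 was -0.53 (-0.39 without LNAME+AngII_4). Notch3, a receptor of mural cells, had -0.95, Pdgfrb -0.92 and Abcc9, a subunit of the vascular potassium channel, -0.69. Their mean level was 9.89 to 10.42 in LNAME+AngII, 10.29 to 10.55 in LNAME, 10.43 to 10.54 in AngII and 10.05 to 10.15 in Ctrl, so both single treatments lay above Ctrl. Erythroid markers were above the sum in 5 of 5 members (4407 of all 9119 genes), with a median of 1.11 on 16 arrays and 0.58 without LNAME+AngII_4. Of these 5, 3 had an unadjusted p under 0.05 (7.23% of all genes above).

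The median interaction of 11 atrial and conduction markers was 0.21, with 4 above and 1 below the sum at an unadjusted p under 0.05 (7.23% and 9.15% of all genes, also for the lists that follow). Myl4, the atrial light chain, read 11.07, 10.13, 12.16 and 10.27 on the LNAME+AngII arrays, 9.52, 9.10, 8.69 and 8.91 on the LNAME arrays, 8.96, 9.09, 9.0002 and 9.33 on the AngII arrays and 9.28, 9.21, 9.19 and 11.88 on the Ctrl arrays. Every LNAME+AngII array lay above all arrays of the other groups except Ctrl_4, and LNAME+AngII_3 and Ctrl_4 read highest. The interaction of Myl4 was 2.65 ± 0.75 (SE, adjusted p = 0.117). The mean of 3 atrial genes was 9.17, 8.12, 10.55 and 7.81 on the LNAME+AngII arrays, 7.09 to 7.68 in LNAME, 6.94 to 7.73 in AngII and 9.78 on Ctrl_4, with 7.04 to 7.53 on the other Ctrl arrays. Endothelial markers had a median of -0.06 over 18 members (4 above, 2 below), cardiomyocyte markers 0.05 over 11 (0 and 3), and lymphocyte and antigen presentation markers 0.29 over 7 (0 and 0; 0.83 without LNAME+AngII_4). Adipocyte and skeletal muscle markers had 2 and 5 tested members, with medians of 0.03 and -0.03. The part of these markers in the gene results was not tested. The covariate fits above are no such test, because the marker means used there differed between the groups themselves.

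**Figure D4:**
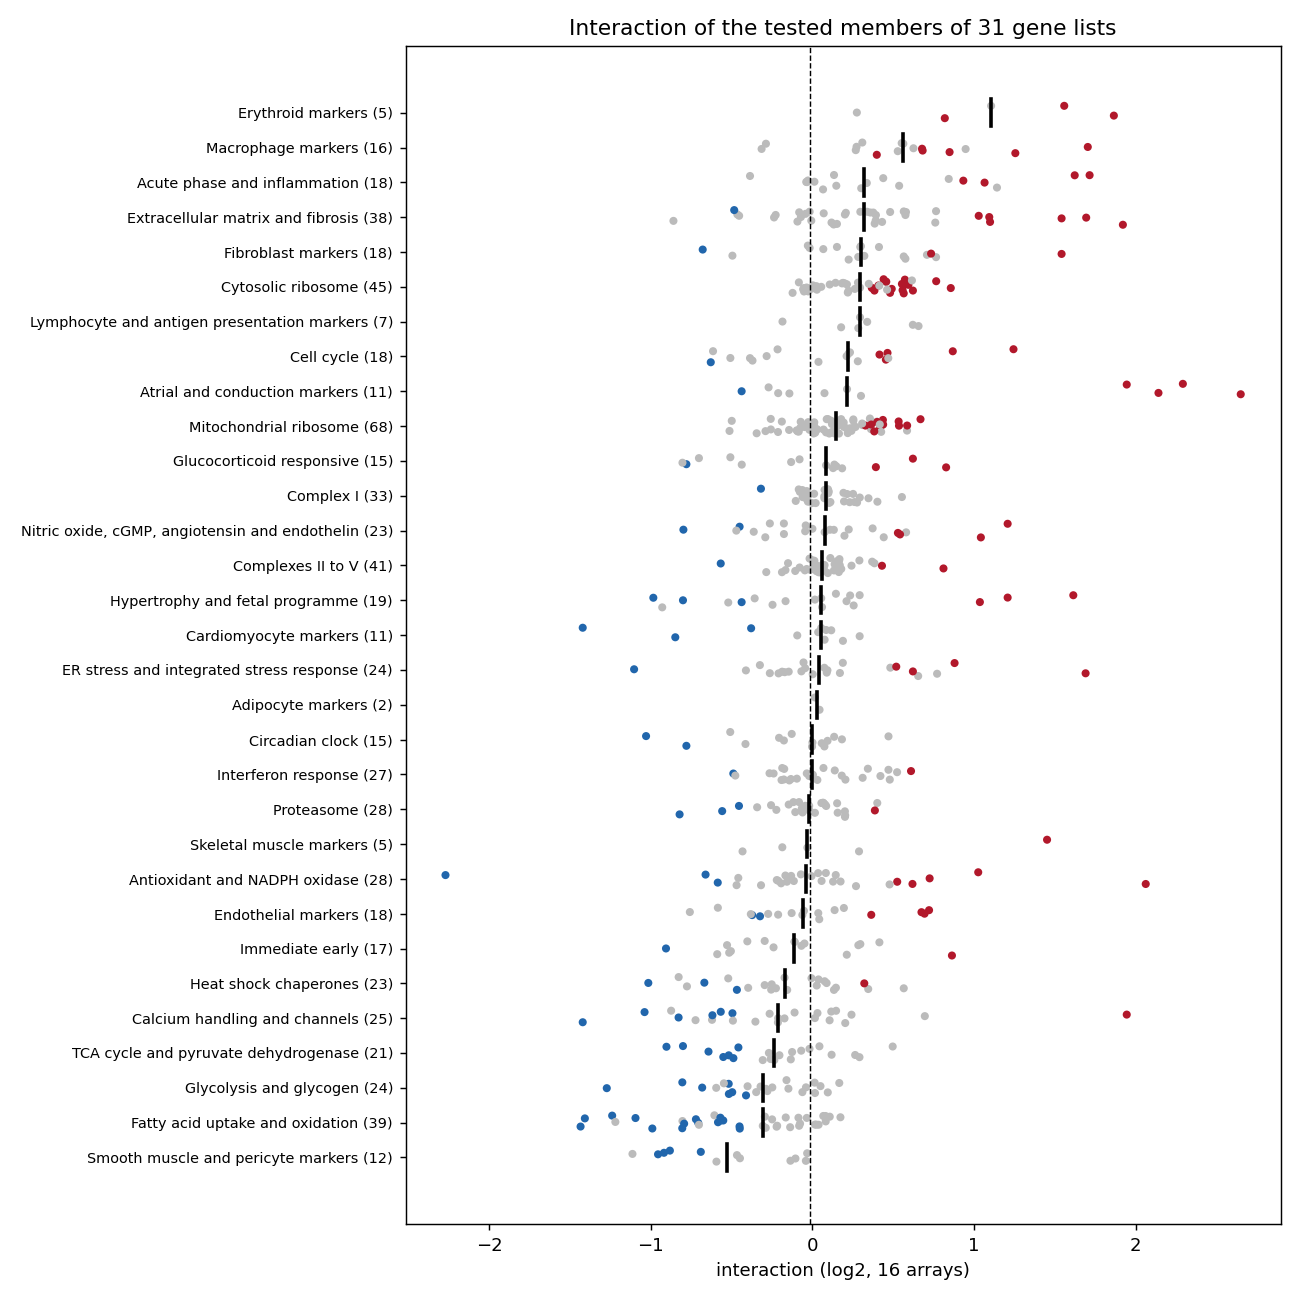
Interaction in log2 units on 16 arrays (horizontal axis) for every tested member of 31 gene lists (vertical axis, ordered by median, with the number tested). Points are genes, red and blue where the unadjusted p is under 0.05, black bars are list medians and the dashed line is the median of all 9119 genes (-0.01). Fatty acid, glycolysis, TCA cycle and smooth muscle lists sit left of the line and ribosomal, macrophage and erythroid lists right of it.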

How the data were processed

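Left ventricular RNA of 4 groups of 4 samples was hybridised to Illumina BeadChips. Per the submitters' processing notes, GenomeStudio and lumi were used, in versions that the sources used here do not give. The authors deposited log2 intensities of 25697 probes, which were used as they stand. Sorted columns differed by at most 0.00132, so they were already quantile normalised (median 6.90 on every array), and no source used here says how background was handled. A second table (64 per-sample columns) was left out, since none of its column names matches a label.

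The platform annotation gave 1 symbol for 23978 probes, none for 1719 and several for 0. Background was the 95th percentile of 1341 chemosensory receptor probes (7.12). A probe needed 4 arrays above this level (13021 did), and each of 9119 genes was represented by its brightest probe. limma 3.58.1 in R 4.3.3 fitted 4 group means to the 16 arrays, with moderated variances (degrees of freedom: 12 residual, 3.15 prior), and p-values were adjusted over all genes by Benjamini-Hochberg at 0.05. The design had no covariate, and the arrays, 4 per group, limit the precision.

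The members, gene lists and named genes were chosen with earlier results of these data known. The text names the 8 genes with the smallest p in each direction on 16 arrays, since none passed there, the 8 largest that passed in each direction without LNAME+AngII_4, 15 genes given whatever their value, and the members of each list with the lowest p, 3 at most. Predicted gene models and sex-linked marker genes were skipped. The shapes of the response use the fit without LNAME+AngII_4, as no gene passed on 16 arrays.

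Deviations from the group means correlated above 0.1 in 24 of 24 pairs with the same label number (0.12 to 0.45), so values of a fit blocked on the number are given where it changes a call. Pairs of numbers 1 with 2, or 3 with 4, did so too (24 of 24), and pairs across these sets did not (0 of 48). For slide and scan date no source used here gives a value. The fit was tested on simulated data with 9119 genes, of which it called 130, 7 of them unchanged. Sequences are from RefSeq. Figures used matplotlib in Python.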

Additional observations from a re-analysis of the deposited data

Results flagged for a closer look

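Without LNAME+AngII_4, 51 genes differed in their AngII effect with and without L-NAME, by the test of the interaction itself, and they are described above.

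In 39 genes examined in 4 groups each (156 groups), 1 array stood far from the other 3 of its group in 10 groups, where chance gives about 1 in 20. LNAME+AngII_4 was that array in 4 of them: Phlda3 read 10.09 on it and 9.47 to 9.58 on the other LNAME+AngII arrays, Mlxipl 9.51 against 10.04 to 10.09, Carm1 6.28 against 7.46 to 7.51, and Acot1 11.19 against 12.85 to 13.01. LNAME+AngII_1 read 9.10 for Slc25a42, with 8.85 to 8.89 on the others of its group. AngII_4 read 10.16 for Slc25a42 (9.63 to 9.72 on the other AngII arrays) and 13.05 for Gpx1 (13.25 to 13.27). AngII_3 read 11.28 for Angptl7, with 8.91 to 9.04 on the others. Ctrl_1 read 8.68 for Ptpn18 (9.15 to 9.18 on the other Ctrl arrays) and Ctrl_4 11.14 for Agtr1a (11.37 to 11.40).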

How the results depend on the processing

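The count of genes changed with the processing, and the cause was not tested. On 16 arrays (0 genes) it was 42 with the replicate block, 51 with a stricter filter on dim probes (above background on 12 arrays), 8 with the mean of all probes of a gene, 156 with a trended robust variance, 179 with array weights, 6 after median centring, 99 on the linear scale and 80 with a block for numbers 1 and 2 against 3 and 4. It stayed 0 without a filter, with every probe tested by itself, after cyclic loess, with a fold threshold of 1.2, and with atrial, erythroid or macrophage genes as a covariate. Leaving out 1 array gave 0 to 51. Without LNAME+AngII_4 (51 genes) these settings gave 29 without a filter, 100 with the stricter filter, 30 with every probe by itself, 256 with the trended robust variance, 256 with array weights, 196 on the linear scale, 127 with the block of sets, 0 with a fold threshold of 1.2, and 0 with atrial, erythroid or macrophage genes as a covariate. The replicate block gave 49 and leaving out a further array 0 to 89. The 1493 genes at an unadjusted p under 0.05 became 546 with the fold threshold and 887 with erythroid genes as a covariate. The block of sets and the erythroid and macrophage covariates were chosen after seeing the data.

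Over 39 named genes, 970 of the values under other settings had the same direction and side of the threshold, 188 newly passed and 9 turned sign, none of them past the threshold. Col1a1 became -0.57 with atrial genes and -1.40 with macrophage genes as a covariate, and -0.01, -0.27 and -0.01 without LNAME+AngII_1, _2 or _3 (range with an array left out -0.27 to 0.90). Myh7 became 0.16 and Nos3 0.059 with erythroid genes as a covariate. On the linear scale Ano10 became 464 and Tbc1d10c 234 intensity units. Array signals over background limit what dim genes such as Ankrd2 and Ecrg4 can show.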
